A study of Rattus norvegicus with 8 samples.

Results

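The mitochondrial ribosome is built from RNA that mitochondrial DNA encodes and from proteins that nuclear genes encode. The genes studied here are those of its proteins, named Mrpl for the large subunit and Mrps for the small subunit. They were taken as the probe sets with exactly 1 gene symbol in the array's annotation, the symbol starting with Mrpl or Mrps followed by a digit. This gave 97 of the 31042 probe sets tested, 58 of them Mrpl and 39 Mrps. They stand for 73 of 14217 genes, 46 Mrpl and 27 Mrps. The names follow history rather than position, since the products of Mrps30 and Mrps18a sit in the large subunit.

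Mitochondrial ribosomes translate the few messages of mitochondrial DNA, whose products are core subunits of the respiratory chain and of ATP synthase. Ribosomal proteins are made in the cytosol, imported, and assembled on mitochondrial rRNA with the help of GTPases, methyltransferases and pseudouridine synthases. Some have counterparts in bacterial ribosomes, and others were added in mitochondria. Skeletal muscle depends on this machinery because its oxidative capacity rests on the respiratory chain.

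The arrays came from epitrochlearis, a forelimb muscle, of male Sprague-Dawley rats 6 weeks old, 1 array per rat. All 8 rats had practised swimming for 3 days, received 5 g of a restricted diet the day before, and swam for 2 h. They were then given 44 kJ by gavage, about 15% of the daily energy need, as carbohydrate with an amino acid mixture (AAM, 4 rats) or as carbohydrate with whey protein hydrolysate (WPH, 4 rats). The comparison asks whether hydrolysed whey protein and a mixture of amino acids of the same composition leave different transcript levels. No rat rested or went unfed, so neither swimming nor feeding itself is measured, and the sources used here do not give the time between meal and sampling. The labels call the rats biological replicates.

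The deposited values lie on a log2-like scale with differences between arrays far smaller than log2 differences usually are. Across arrays a typical probe set had an SD of 3.69e-06 (the median of all), and the 97 Mrpl and Mrps probe sets had a median SD of 6.88e-06. A deposited difference is therefore not a fold change. Values on single arrays are given as z, the deviation from a probe set's own mean over the 8 arrays in units of its SD over them. The standardized difference between the meals sets the mean of WPH minus that of AAM over the SD pooled from both groups. The mean levels of the members lay between 5.77 and 11.15 on the deposited scale, where all probe sets spanned 5.28 to 14.25. The 8 markers shared by all skeletal muscle fibres had levels from 8.08 to 14.24, with Acta1 (skeletal actin) at 14.24 and Ckm (muscle creatine kinase) at 14.15. The 6 skin and epithelial markers lay between 6.03 and 6.79. In a whole muscle, fewer cells of a type and less RNA per cell cannot be told apart.

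Neither subunit held a gene that passed the test between the meals. By limma with Benjamini-Hochberg adjustment over all probe sets, 0 of the 97 had an adjusted p below 0.05, as did 0% of all 31042 probe sets. At an unadjusted p below 0.05 there were 4 of the 97, all lower after WPH, where 3.58% of all probe sets passed and 1.86% passed in the lower direction. The 4 AAM and 4 WPH values did not overlap for 2 members, Mrpl22 and Mrps17, both lower after WPH, against 2.23% of all probe sets (1.15% lower and 1.08% higher). As deposited, 40 of 58 Mrpl probe sets were lower after WPH with a median standardized difference of -0.51, but after quantile normalization 21 of 45 were lower with a median of 0. As deposited, 27 of 39 Mrps probe sets were lower with a median of -0.216, but after quantile normalization 15 of 33 were lower with a median of 0, and without AAM rat 3 the median was 0.0718. Over all probe sets 52.7% were lower after WPH and the median was -0.044. Centring each array on its median moved the median of all probe sets to -0.515, and those of Mrpl and Mrps to -0.583 and -0.563. It left 91% of all probe sets lower after WPH. Quantile normalization raised the median SD of a probe set from 3.69e-06 to 7.56e-05 and left 2705 at 1 value on all arrays. A sign that turned under either scaling therefore limits a direction and does not show a reversal for that gene. With 1 probe set per gene, 53.9% of all genes were lower as deposited. Among members that have a bacterial counterpart, 19 of 26 Mrpl genes (73.1%) and 10 of 17 Mrps genes (58.8%) were lower, the last close to that share. Among those added in mitochondria, 14 of 20 Mrpl genes and 8 of 10 Mrps genes were lower, and no difference between these classes was tested.

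**Figure D1:**
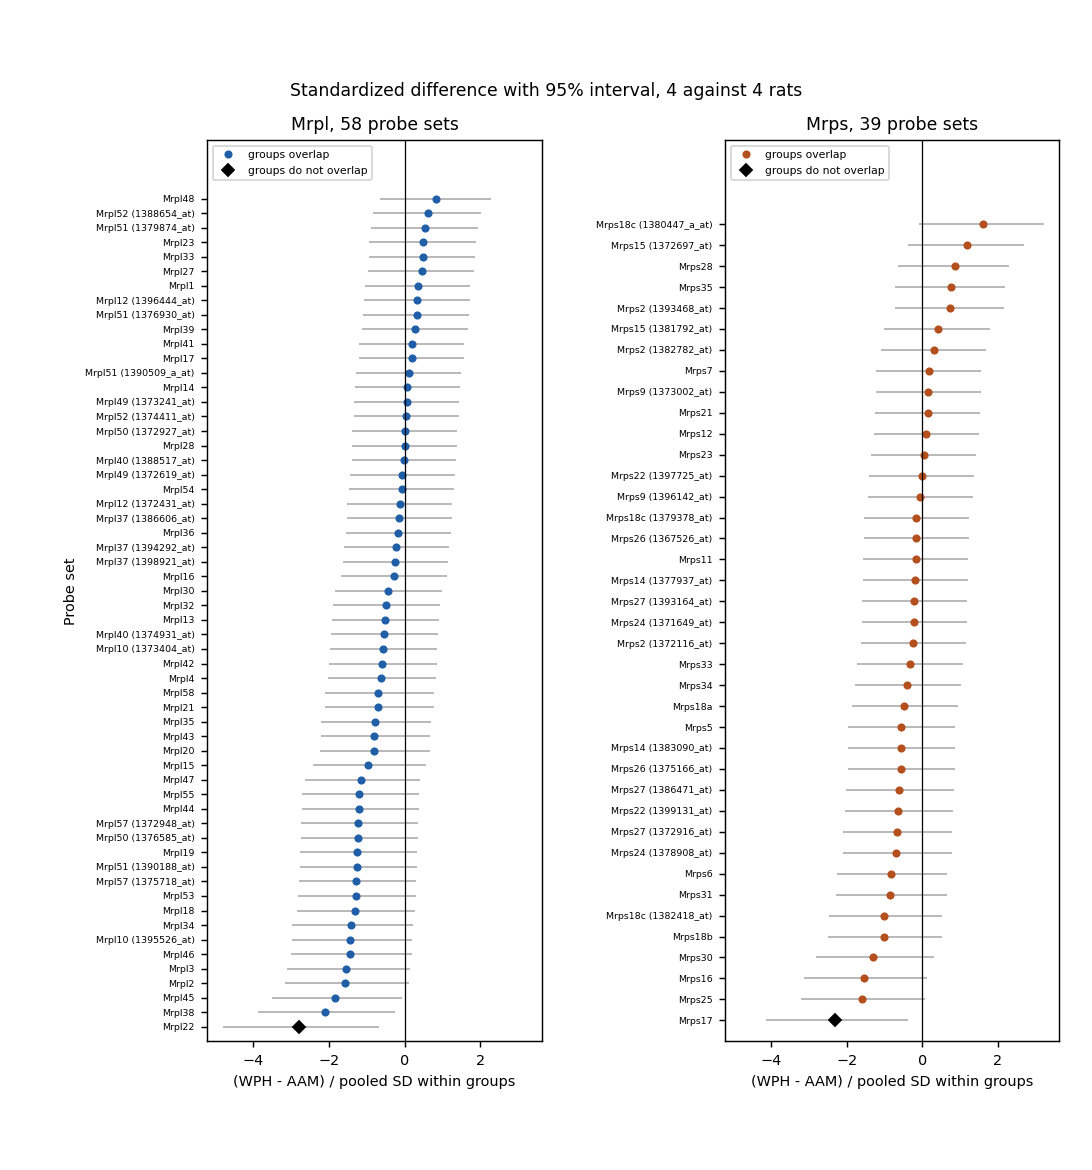
Standardized difference of each Mrpl (left, 58) and Mrps (right, 39) probe set, WPH minus AAM over the pooled SD within groups, with its 95% interval from 4 against 4 rats. Diamonds mark Mrpl22 at -2.79 and Mrps17 at -2.3, the only members whose groups do not overlap, and most intervals cross 0.

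Mrpl22 encodes a protein that lines the tunnel through which the new chain leaves the large subunit. Its z was 0.062, 0.842, 1.72 and 0.558 in AAM rats 1 to 4, and -0.576, -1.03, -0.34 and -1.24 in WPH rats 1 to 4. Each WPH value lay below each AAM value, with AAM rat 1 closest to the WPH group. The standardized difference was -2.79 (95% interval -4.81 to -0.671, n = 4 per group; unadjusted p of 0.0233 by limma), the lowest of all 97. On the deposited scale the difference was -1.35e-06 ± 3.41e-07 (SE, n = 4 per group), where the mean level of the probe set was 10.06. It was -0.588 after median centring, and quantile normalization left the probe set at 1 value on all arrays.

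Mrps17 encodes a small subunit protein with a bacterial counterpart that binds rRNA. Its z was 1.07, 0.0269, 0.278 and 1.62 in the AAM rats and -0.347, -0.743, -0.358 and -1.54 in the WPH rats. The groups did not overlap, although AAM rat 2 and the highest WPH rat lay close together. The standardized difference was -2.3 (-4.13 to -0.37; unadjusted p of 0.0147 by limma). It was -0.739 after median centring, and its sign turned to 0.564 after quantile normalization. A copy or pseudogene named after Mrps17 stands in the gene table, as for 22 of the 73 genes, and whether transcripts of copies bound these probes was not tested.

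The other Mrpl genes at the low end overlapped between the meals. Mrpl38, a protein of the central protuberance of the large subunit, had z of -0.585, 0.879, 1.6 and 1 in the AAM rats and -0.923, -0.536, -0.432 and -1 in the WPH rats. Only AAM rat 1 fell within the WPH range. The standardized difference was -2.11 (-3.88 to -0.252), and it was -5.76 without that rat. After median centring it was -0.841, and its sign turned to 0.982 after quantile normalization. Mrpl45, which lies near the exit of the tunnel and holds the ribosome to the inner membrane, had z of 1.02, 0.841, 1.26 and -0.403 against -0.587, -0.382, -0.0204 and -1.73. Here AAM rat 4 lay among the WPH rats, and the standardized difference was -1.84 (-3.51 to -0.0714). These 2 genes, with Mrpl22 and Mrps17, are the 4 with an unadjusted p below 0.05.

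Mrpl2 and Mrpl3, both proteins of the core near the catalytic centre, had standardized differences of -1.57 and -1.54, and Mrpl46, another protein of the central protuberance, had -1.45. In each of these 3 genes AAM rat 3 was the highest of all 8. After quantile normalization the sign turned for Mrpl2 (0.707) and Mrpl46 (0.349), and Mrpl3 stood at -1.22. At the other end stood Mrpl48 (0.842), with AAM rat 1 lowest at -1.91 and WPH rat 4 highest at 1.21. Single probe sets of Mrpl52 (0.616) and Mrpl51 (0.551) came next. Mrpl23 (0.493), Mrpl33 (0.478) and Mrpl27 (0.451) followed, and AAM rat 1 was the lowest rat for each, at -1.63, -2.16 and -1.96. These directions hold as deposited, and quantile normalization turned Mrpl48 to -0.707. Median centring turned Mrpl23 to -0.216, Mrpl33 to -0.496, Mrpl27 to -0.445 and the probe set of Mrpl52 to -0.491. These 4 values lie no lower than the median of all probe sets under that centring, -0.515.

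Among the Mrps genes, Mrps25 had a standardized difference of -1.61 (-3.21 to 0.0831) and Mrps16 of -1.55 (-3.13 to 0.124). Both had AAM rat 3 highest, at 1.65 and 1.93, and WPH rat 4 lowest, at -1.51 and -1.33. Mrps30 (-1.3) and Mrps18b (-1.02) also had WPH rat 4 lowest, at -1.99 and -1.79. After quantile normalization Mrps16 was at -1.41, Mrps30 was at 0, and Mrps25 and Mrps18b kept no differing values. The highest Mrps genes were Mrps15 (1.18), Mrps28 (0.859) and Mrps35 (0.767), beside single probe sets of Mrps18c (1.62) and Mrps2 (0.742), and the second probe set of Mrps15 gave 0.408. For Mrps15, z was -1.78, 0.317, 0.402 and -1.05 in the AAM rats and 0.644, -0.241, 0.338 and 1.37 in the WPH rats. AAM rats 1 and 4 were low and AAM rats 2 and 3 were within the WPH range, and median centring turned the difference to -0.476. The probe set of Mrps2 turned to -0.467 and the second of Mrps15 to -0.142 under the same centring, and Mrps28 turned to -0.627 after quantile normalization.

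Several genes are read by more than 1 probe set, and these did not always go the same way. Of the 18 such genes, 7 had probe sets on both sides of 0. Mrps18c, whose product matches a bacterial small subunit protein, had 3 probe sets at -1.02, -0.166 and 1.62. Their r over the 8 arrays lay between -0.56 and 0.35, and the value of 1.62 turned to -0.0962 after median centring and -0.305 after quantile normalization. The 4 probe sets of Mrpl51 ran from -1.26 to 0.551, and both probe sets of Mrpl50 had values of -1.24 and 0.00716 with an r of -0.31. By contrast, both probe sets of Mrpl57 gave -1.29 and -1.23, though with an r of 0.31. The 3 of Mrps27, a protein with RNA-binding repeats, gave -0.683 to -0.216 with r from 0.79 to 0.95. These directions too turned after quantile normalization, to 0.707, 0.397 and 0.245 for Mrps27 and to 0.67 for the probe set of Mrpl57 that kept differing values. Both probe sets of Mrpl12, whose product also binds the mitochondrial RNA polymerase, had an r of 0.91 yet lay at -0.133 and 0.341. Those of Mrpl49 (-0.0585 and 0.0519, r of 0.85) and Mrps9 (-0.0518 and 0.159, r of 0.9) lay close to 0 on both sides. Mrpl10 had -1.43 and -0.582 with an r of -0.39.

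Only 3 of the 97 probe sets ranged over more than 0.001 on the deposited scale. Mrpl41, a large subunit protein, had the widest range of 0.0287. Its levels were 10.35, 10.34, 10.33 and 10.35 in the AAM rats and 10.36, 10.34, 10.34 and 10.34 in the WPH rats. AAM rat 3 was its lowest rat, at a z of -1.78, where 50 of the 97 had their highest. Mrps35 (range 0.00201) had 1 low rat, AAM rat 4, at a z of -2.31, and Mrpl42 (0.00118) had AAM rat 3 high at 2.08. Mrpl47 came next with a range of 0.00095 and had AAM rat 2 high at 1.59 and WPH rat 4 low at -1.89, and its standardized difference of -1.14 turned to 1.15 after quantile normalization. The next widest Mrps probe sets were 1 of Mrps14 (0.000343), at a standardized difference of -0.195, and Mrps11 (0.00027), at -0.178.

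**Figure D2:**
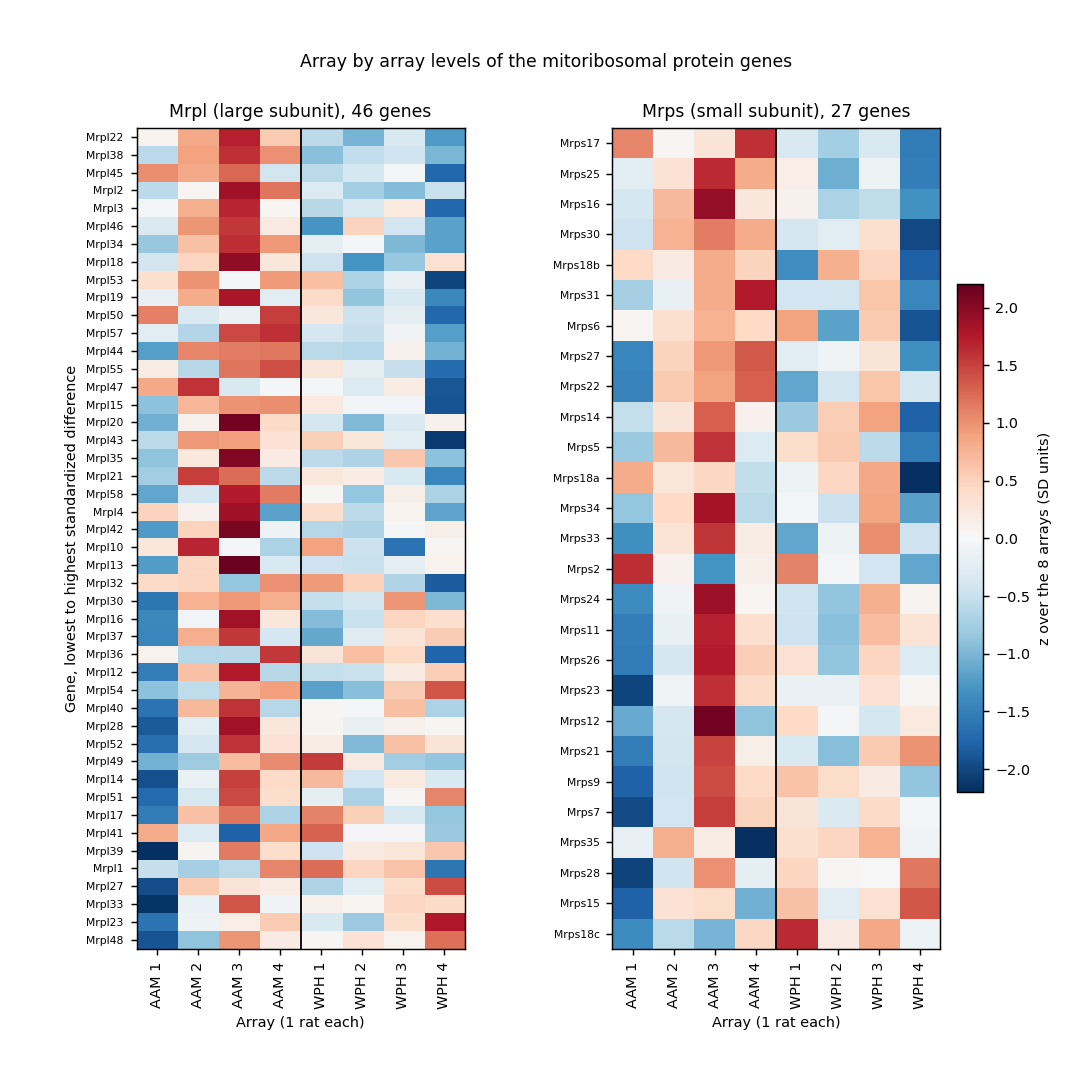
z of each of the 46 Mrpl and 27 Mrps genes (rows, by rising standardized difference, 1 probe set per gene) on each of the 8 arrays (columns, AAM left of the line, WPH right); red is above and blue below a gene's own mean. AAM 3 is the highest array for 42 of 73 genes (57.5%, against 18.6% of all genes) and AAM 1 the lowest for 35 (47.9%, against 15.7%).

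Within the AAM group, the genes of both subunits varied together from rat to rat. The mean z of the 58 Mrpl probe sets was -0.809, 0.279, 1.07 and 0.354 in AAM rats 1 to 4 and -0.0754, -0.324, -0.0695 and -0.422 in WPH rats 1 to 4. That of the 39 Mrps probe sets was -0.82, 0.154, 0.899 and 0.271, then 0.0953, -0.284, 0.299 and -0.615. AAM rat 1 was the lowest and AAM rat 3 the highest in both, so the WPH rats lay inside the range of the AAM rats. The SD of this mean z over the rats was 0.774 in AAM and 0.178 in WPH for Mrpl, and 0.71 and 0.406 for Mrps (n = 4 each). AAM rat 3 had the highest value for 50 of 97 probe sets (51.5%, against 16% of all probe sets). AAM rat 1 had the lowest for 46 (47.4%, against 14.9%) and WPH rat 4 for 32 (33%, against 13.8%). The SD within AAM exceeded that within WPH for 75 of the 97 (77.3%, against 58.3%). These summaries, and those of co-variation that follow, were chosen after the values were seen and carry no test.

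The order of the rats holds for the deposited values and changes with the scaling. After median centring AAM rat 2 was the highest for 57 of the 73 genes, beside 11069 of all 14217 genes. After quantile normalization AAM rat 3 was the highest for 8 of 54 members and the lowest for 19. Among all 12950 genes that kept differing values there, AAM rat 3 was the highest for 983 and the lowest for 7202. Set against the mean z of all genes on the same array, the members stood 1.06 higher in AAM rat 3 as deposited, 0.525 after quantile normalization and 0.589 after median centring. In AAM rat 1 they stood at -0.829, -0.0805 and -0.503 relative to all genes. The 8 array medians spanned 6.67e-05, more than the median SD of a probe set.

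The mean correlation over all pairs of the 73 genes was 0.341 over the 8 arrays, where that over all 14217 genes was 0.00155. It was 0.339 among Mrpl genes, 0.341 among Mrps genes and 0.342 between the subunits. With each meal's mean removed it was 0.357. It was 0.313 without AAM rat 1, 0.236 without AAM rat 3 and 0.146 without both, so a large share of it rests on these 2 rats. After quantile normalization the mean was 0.0617 among the members and 0.184 among all genes, and after median centring 0.549 and 0.603, so there the members did not stand above all genes. All these correlations share 8 arrays and their array-wide offsets. Of the 73 genes, 67 had a positive r with the mean z of the others and 51 had an r above 0.5. The highest was that of Mrpl35 (0.932), a protein with a bacterial counterpart, followed by Mrpl58 (0.908), a hydrolase that frees stalled chains. Mrps26 (0.881), Mrpl44 (0.878), a protein with a ribonuclease-like fold, and Mrps27 (0.873) came next.

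Other genes of mitochondrial translation were read in the same way, 1 probe set per gene, and none passed the adjusted threshold. Of 5 mitoribosome proteins that carry other names, 4 were lower after WPH as deposited, with a median of -0.491. Aurkaip1, a small subunit protein, stood at -2.03 (unadjusted p of 0.0219 by limma), with WPH rat 4 lowest at a z of -1.85 and groups that did not overlap. Ptcd3, a small subunit protein with RNA-binding repeats, stood at -1.08. Of 25 assembly and rRNA modification genes, 19 were lower (median -0.307). Mterf4, which brings a methyltransferase to the large subunit rRNA, had -2.47 and groups that did not overlap (unadjusted p of 0.00928), and Rpusd4, a pseudouridine synthase, had -1.5.

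Of 18 translation factors measured, 13 were lower (median -0.568), with Oxa1l, the insertase that receives new chains at the membrane, at -1.33 and C1qbp at -1.26. Of 17 aminoacyl-tRNA synthetases and charging enzymes, 13 were lower (median -0.446). Qrsl1, a subunit of the enzyme that makes glutaminyl-tRNA, had -3.33 with groups that did not overlap (unadjusted p of 0.00217), and Rars2, the arginyl-tRNA synthetase, had -2.23. Of 20 genes of mitochondrial DNA maintenance, transcription and its control, 12 were lower (median -0.0927). Esrra, a nuclear receptor of oxidative genes, stood at -2.04 with groups that did not overlap, and Tefm, an elongation factor, at -1.72. By the same count 53.9% of all 14217 genes were lower, with a median of -0.0582. These leanings hold for the deposited values. After quantile normalization the medians were 0 for the 3 proteins of other names that kept a value, 0.0308 for assembly genes, 0.166 for synthetases and 0.347 for genes of mitochondrial DNA, and that of translation factors was -0.56. Without AAM rat 3 the median of the 5 proteins of other names was 0.121, and that of the DNA genes was 0.382 without WPH rat 4 and 0.0131 without AAM rat 1. Of the genes named here, quantile normalization turned Esrra to 0.976, Qrsl1 to 0.402 and Rars2 to 0.379. It left Aurkaip1 at -0.196, Rpusd4 at -1 and Tefm at -0.29, and put Ptcd3 at 0. Mterf4, Oxa1l and C1qbp kept no differing values there.

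The other gene sets showed which rats the pattern was shared with. The 48 nuclear genes of the respiratory chain had a mean z of -1.36, 0.172, 1.64 and -0.213 in the AAM rats and -0.382, -0.0931, 0.177 and 0.0603 in the WPH rats. As deposited they were thus lowest in AAM rat 1 and highest in AAM rat 3, as the members were. After median centring they were highest in AAM rat 2 (1.76, all genes 1.63) and lowest in AAM rat 4 (-0.789, all genes -0.594). Quantile normalization left values for 8 of the 48. As deposited, the mean correlation of the 48 genes with the 73 members was 0.406, and it was -0.00971 without both AAM rats 1 and 3. The 14 genes of the tricarboxylic acid cycle had -1.1 in AAM rat 1 and 1.51 in AAM rat 3, and a mean correlation of 0.41 with the members. The 36 cytosolic ribosomal protein genes that could be measured, of 70 listed, ran the other way in both rats, at 0.532 and -1.04. Their mean correlation with the members was -0.0701 over 8 arrays and 0.249 without AAM rats 1 and 3. After WPH 32 of these 36 were lower as deposited (median -0.422), 31 of 48 respiratory chain genes (median -0.0595) and 10 of 14 cycle genes (median -0.309). Without AAM rat 3 the direction turned for the last 2 sets, with 40 of 48 respiratory chain genes and 9 of 14 cycle genes higher (medians 0.628 and 0.267). The median of the respiratory chain genes was also above 0 without WPH rat 1 (0.0386) and without both AAM rats 1 and 3 (0.0338). The respiratory chain gene of smallest p was higher after WPH: Cox5a, a subunit of cytochrome c oxidase, had z of -1.97, -0.218, -0.597 and -0.289 in the AAM rats and 0.967, 0.613, 1.06 and 0.437 in the WPH rats. Its probe set had a mean level of 8.43, the lowest of the 48, which reached 13.22. Its groups did not overlap and its standardized difference was 2.5 (unadjusted p of 0.00869 by limma), with 1.11 after median centring and -1.07 after quantile normalization. The next was Ndufa9, of complex I, at -1.19. In the cycle these were Dlst (-1.15), of the oxoglutarate dehydrogenase complex, and Sdha (-0.915), of succinate dehydrogenase, and among cytosolic ribosomal protein genes Rpl23 (-1.66) and Rpl34 (-1.2). The groups of these 5 genes overlapped. Cytosolic ribosomal protein genes had a median of 0.384 after quantile normalization, which left values for 5 of them.

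Fibre types and RNA quality were compared with the same rats. The 8 slow fibre markers had a mean z of 0.0175 in AAM rat 1 and 0.0368 in AAM rat 3, and 0.854, 0.847, -1.11 and -0.992 in the WPH rats. The 10 fast fibre markers had -0.312 in AAM rat 1, -0.686 in AAM rat 3 and 1.12 in WPH rat 4. These means cover opposite genes, with 4 of the 10 above their own mean in AAM rat 1 and 3 in AAM rat 3. Myh1 had a z of -1.47 in AAM rat 1 and 1.84 in AAM rat 3, where Myh4 had 1.26 and -2.02. The 6 fibroblast markers, at 0.0614 in AAM rat 1 and 0.68 in AAM rat 3, were highest in WPH rat 4 at 1.38. Like the members, though less far apart, 4 sets were below 0 in AAM rat 1 and above it in AAM rat 3. They were erythrocytes (3 markers, -0.478 and 0.815), smooth muscle and pericytes (6, -0.457 and 0.606), endothelium (5, -0.251 and 0.871) and Schwann cells and nerve (4, -0.267 and 0.232). Adipocyte (6) and macrophage (8) markers were high in AAM rat 1, at 1.11 and 0.9, and stood at 0.762 and 0.283 in AAM rat 3. The other sets lay between -0.386 and 0.604 in AAM rat 1 and between -0.793 and 0.0368 in AAM rat 3. On the array's RNA integrity controls, AAM rat 3 had the lowest value of all 8 rats for the 5' end of Gapdh (z of -1.68) and of beta-actin (-1.75), and -0.538 and -0.739 for their 3' ends, but the highest for the middle of beta-actin (1.76). AAM rat 1 had the highest value of all 8 for the 5' end of Gapdh (1.24) and also the highest for its 3' end (1.18), so these Gapdh probes were opposite to the members in both rats. WPH rat 4 had 1.9 and 2.13 for the 5' and 3' ends of beta-actin. The part of these in the members' pattern was not tested.

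**Figure D3:**
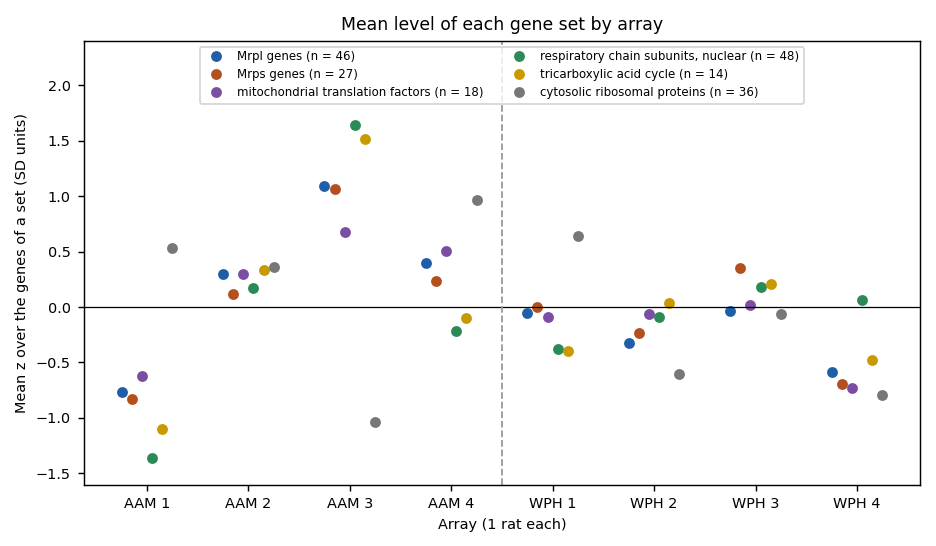
Mean z over the genes of 6 sets on each of the 8 arrays, AAM left and WPH right of the dashed line, 1 probe set per gene. As deposited, Mrpl, Mrps, respiratory chain and tricarboxylic acid cycle genes are lowest in AAM 1 and highest in AAM 3, where cytosolic ribosomal protein genes are at -1.04.

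The promoters of the member genes were read from RefSeq (GRCr8) as windows from 250 bases before to 50 bases after a start. Windows were found for 59 of the 73 genes, 61 windows in all, on 18 chromosomes. Altogether 15 strings were searched on both strands, and 3 were kept for display, a choice made after the shares were seen. Some strings that were not kept, such as ATGGCGGC below, stood further above the background than the NRF-1 string. The consensus site of NRF-1 stood in 9 of 61 windows, or 14.8%, against 7.88% of windows of genes on the array and 4.25% of all 33469 windows. The ETS string CCGGAAG, the core read by GABP, stood in 20 windows, or 32.8%, against 14.2% and 8.75%. The YY1 string AAGATGGCG stood in 8 windows, or 13.1%, against 2.93% and 1.73%. In the 250 bases before the start alone the shares were 11.5% against 7.09% for NRF-1 and 21.3% against 12.1% for ETS. That of YY1 was 1.64% against 1.02%, so 7 of its 8 windows hold it only across or after the start. In 0 of the windows did 2 of these strings overlap, and 30 of the 59 genes held at least 1. The ETS and YY1 strings share their last and first letters AAG and could overlap. A match describes letters only and shows no binding.

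Of the other 12 strings, 8 were more frequent in member windows than in those of genes on the array and 4 were not. The 4 shorter or longer forms of the same 3 motifs were the strict NRF-1 palindrome (6.56% against 1.54%), TGCGCATG (9.84% against 2.96%), ACTTCCGG (13.1% against 6.38%) and ATGGCGGC (19.7% against 4.68%). Before the start alone, ATGGCGGC stood in 0 of 61 windows against 1.76%, the other way round, and ACTTCCGG in 8.2% against 5.31%. The remaining 8 lay on both sides of the background. They were TCAAGGTCA (0% against 0.273%) and AAGGTCA (4.92% against 3.31%) of the ERR receptors, TGACGTCA of CREB (1.64% against 2.71%) and GGGGCGGGG of Sp1 (11.5% against 17.7%). The others were the ZNF143 site (0% against 0.523%), CCAAT (44.3% against 36.8%) and the TATA box TATAAA (13.1% against 8.47%). The last was the E-box CACGTG (9.84% against 8.65%, but 6.56% against 7.6% before the start alone). Before the start alone, CCAAT stood at 44.3% against 34.6%, TATAAA at 13.1% against 8.04% and AAGGTCA at 4.92% against 2.95%. The 4 strings below the background in the full window were below it there too.

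The 250 bases before the start follow for the members whose groups did not overlap, Mrpl22 (chr10:42845660-42845909, plus strand) and Mrps17 (chr12:32587813-32588062, minus strand), and for 2 members that hold the strings, Mrpl45 (chr10:82804789-82805038, plus strand) and Mrpl57 (chr15:36086207-36086456, plus strand). The last line gives the 233 bases between the starts of Mrpl46 (minus strand) and Mrps11 (plus strand), at chr1:142117031-142117263 and read on the plus strand. Each runs 5′ to 3′ on its strand in GRCr8, with NRF-1, ETS and YY1 strings in capitals.
Mrpl22: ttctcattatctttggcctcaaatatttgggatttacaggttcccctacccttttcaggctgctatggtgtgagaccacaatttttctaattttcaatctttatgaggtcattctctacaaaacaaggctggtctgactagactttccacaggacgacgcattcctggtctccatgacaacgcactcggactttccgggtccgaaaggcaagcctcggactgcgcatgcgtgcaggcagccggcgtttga
Mrps17: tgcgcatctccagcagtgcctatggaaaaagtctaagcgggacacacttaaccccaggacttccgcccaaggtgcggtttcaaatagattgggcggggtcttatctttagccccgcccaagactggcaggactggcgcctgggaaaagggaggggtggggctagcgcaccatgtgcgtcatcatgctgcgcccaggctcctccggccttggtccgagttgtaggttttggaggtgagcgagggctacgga
Mrpl45: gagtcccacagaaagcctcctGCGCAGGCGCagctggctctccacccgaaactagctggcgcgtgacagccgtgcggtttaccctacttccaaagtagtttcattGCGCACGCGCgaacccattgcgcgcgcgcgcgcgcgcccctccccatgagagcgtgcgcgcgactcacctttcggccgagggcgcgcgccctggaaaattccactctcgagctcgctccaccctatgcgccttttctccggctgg
Mrpl57: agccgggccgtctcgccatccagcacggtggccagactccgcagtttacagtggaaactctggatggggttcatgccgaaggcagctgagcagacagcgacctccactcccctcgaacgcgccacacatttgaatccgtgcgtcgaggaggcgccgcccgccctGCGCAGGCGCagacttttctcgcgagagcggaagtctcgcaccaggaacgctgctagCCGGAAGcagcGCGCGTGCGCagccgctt
Mrps11 and Mrpl46: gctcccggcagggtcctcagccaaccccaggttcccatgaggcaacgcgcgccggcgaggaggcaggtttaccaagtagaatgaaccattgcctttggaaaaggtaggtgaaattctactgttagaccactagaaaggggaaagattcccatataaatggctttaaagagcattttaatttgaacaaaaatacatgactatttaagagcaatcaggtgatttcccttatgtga
The stretches of Mrpl22 and Mrps17 hold none of the 3 strings, as is so for the windows of 29 of the 59 genes. That of Mrpl22 does hold TGCGCATG, the shorter form of the NRF-1 string, and its window holds ATGGCGGC across or after the start. Mrpl45 holds the NRF-1 string at 2 places, and Mrpl57 holds it at 2 places with an ETS string between them. The GC content was 48.4% for Mrpl22, 59.6% for Mrps17, 65.6% for both Mrpl45 and Mrpl57 and 45.1% between Mrps11 and Mrpl46.

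Some of these genes start back to back with another gene. Of the 59 genes with a window, 18 (30.5%) had a start on the other strand within 1000 bases before their own, against 14.6% of genes on the array and 11.3% of all. The distances ran from 44 to 996 bases, and the limit was set after values were seen. In 1 pair both genes are members, Mrpl46 and Mrps11, whose starts are 234 bases apart. Mrps11, a small subunit protein with a bacterial counterpart, had z of -1.53, -0.169, 1.71 and 0.373 in the AAM rats and -0.451, -0.911, 0.682 and 0.298 in the WPH rats. Mrpl46 had -0.321, 0.963, 1.56 and 0.193, then -1.29, 0.498, -0.426 and -1.18. Both were highest in AAM rat 3 and differed in the WPH rats, with an r of 0.365 over the 8 arrays.

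Over the 13 neighbour pairs with both genes measured, r ran from -0.879 to 0.928 and was above 0 in 7. Mrps27 and Ptcd2, whose starts lie 91 bases apart, had the r of 0.928, with standardized differences of -0.683 and -1.28. Mrpl40 and Hira, 186 bases apart, had the r of -0.879. Mrpl47 starts 244 bases from Ndufb5, a subunit of complex I. Their standardized differences were -1.14 and 0.496, and their r was -0.626. Genes thought to act on such promoters showed no difference past the adjusted threshold. Nrf1 had a standardized difference of 0.211, Gabpa of 0.299, Gabpb1 of 0.855 and Yy1 of -0.0307. Ppargc1a, a coactivator of mitochondrial genes, had -0.0543, Ppargc1b -0.424 and Pprc1 0.249. Esrra stood furthest from 0 among them, at -2.04 with groups that did not overlap (unadjusted p of 0.0212 by limma), but at 0.976 after quantile normalization.

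**Figure D4:**
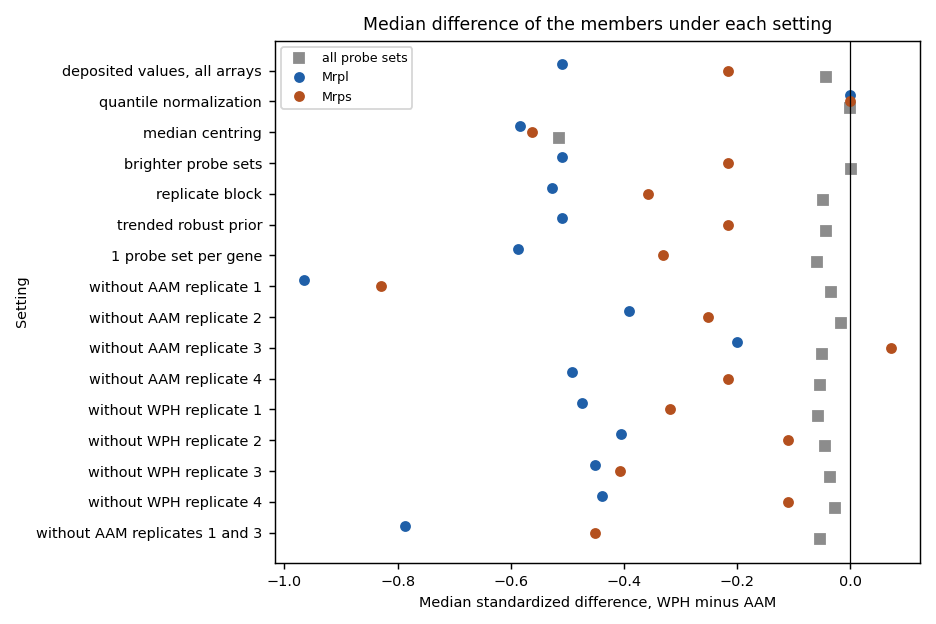
Median standardized difference (WPH minus AAM) of the Mrpl and Mrps probe sets and of all probe sets under the deposited values with all arrays and each alternative setting. The Mrpl median lies between -0.965 and 0, the Mrps median reaches 0.0718 without AAM rat 3, and median centring moves all probe sets to -0.515.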

How the data were processed

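Transcript levels were measured in 8 epitrochlearis muscles on Affymetrix 3' expression arrays, from 100 ng of total RNA each per the labels' protocols. The authors deposited 1 log2-like value per probe set and array. The submitters' processing notes name R 2.7.2, and the sources used here do not give the background correction, normalization, summary method or log base. Of 31099 probe sets, 57 controls were left out. Among the 31042 tested, 1 symbol was given for 20826, more than 1 for 436, and 9780 are unnamed here. All 73 member gene IDs matched the GRCr8 gene table, which holds 5 further Mrpl or Mrps protein-coding genes without a member probe set.

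A linear model with moderated two-sided tests (limma 3.58.1, lmFit then eBayes, R 4.3.3; prior degrees of freedom 0.549) compared WPH with AAM over all probe sets. P-values were adjusted by Benjamini-Hochberg, with 0.05 as the threshold, and the fit was tested on simulated data. Intervals (95%) come from the noncentral t distribution. The number of arrays limits the precision. No array batch or barrel is labelled, so such effects and the meals cannot be told apart. Gene sets used 1 probe set per gene, that of highest mean. The members named with values were those whose groups did not overlap, the 6 highest and 6 lowest standardized differences and the 3 widest ranges of each subunit, and genes with several probe sets. Of each other list it was the 2 genes of smallest p. Beyond this rule, genes most like the other members, genes with a neighbour, regulators of mitochondrial genes and promoters were chosen after their values were seen. The members and lists were chosen with earlier results of these data known. Older list symbols were matched through gene IDs, Ict1 was dropped from its list because it is Mrpl58, and Sdha and Sdhb stand in 2 lists. Alternatives were quantile normalization, median centring, the brighter probe sets, the replicate block, a trended robust prior, 1 probe set per gene and leaving out each array. Added after the data were seen were leaving out AAM rats 1 and 3 together, the array pattern under each scaling, and the limits on r, range and distance. So were 2 rules for quantile normalization: probe sets left at 1 value were dropped, and standardized differences within 1e-06 of 0 counted as neither higher nor lower. A first pass without these 2 rules gave other counts, since rounding noise then set signs.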

Additional observations from a re-analysis of the deposited data

Results flagged for a closer look

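Of 146 groups of 4 rats examined (63 named probe sets and 10 mean z values, each in AAM and in WPH), 5 held a rat far from the other 3, where a chance rate of 1 in 20 gives 7.3. The measure is the gap to the nearest other rat over the group's range (Dixon's ratio). Mrpl50 (the probe set at a standardized difference of 0.00716) had AAM rat 1 far below the other AAM rats, with a gap of 0.943. Mrpl27 also had AAM rat 1 far below, with a gap of 0.839. For Mrpl10 (the probe set at -1.43), AAM rat 2 was low with a gap of 0.831, and WPH rat 3 was high with a gap of 0.867. The mean z of the translation factors was low in WPH rat 4, with a gap of 0.853. Both Mrpl genes with a low AAM rat 1 share that rat with the low mean z of the respiratory chain genes.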

How the results depend on the processing

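No member passed the adjusted threshold under any alternative run, nor did any other probe set. The count of all probe sets with an unadjusted p below 0.05 was 1110 of 31042 as reported. It was 363 of 28337 after quantile normalization and 172 of 31042 after median centring. Among the brighter probe sets it was 447 of 15521, and with 1 probe set per gene 450 of 14217. Over all 31042 it was 1367 with the replicate block, 1132 with the trended robust prior and 1015 to 1377 when 1 rat was left out. After quantile normalization, which left 2705 probe sets at 1 value on all arrays, 21 of 45 Mrpl and 15 of 33 Mrps probe sets were lower after WPH, and both medians were 0. After median centring 5 Mrpl and 2 Mrps probe sets were higher, beside 9.01% of all probe sets. Leaving out 1 rat at a time gave 6 to 24 higher Mrpl probe sets and 7 to 21 higher Mrps probe sets, both lowest without AAM rat 1 and highest without AAM rat 3; the medians ran from -0.965 to -0.201 and from -0.829 to 0.0718. With group means removed, the correlations of same-numbered rats were 0.157, 0.134, 0.064 and -0.071. The same-numbered WPH rat was the closest match for AAM rats 1 and 2, but not for AAM rats 3 and 4. Whether the numbers pair the rats cannot be decided from these values, as removing group means holds such correlations near 0 on average. With the replicate block, 18 Mrpl and 12 Mrps probe sets were higher, medians were -0.527 and -0.358, and 0 members were called. The smallest adjusted p of all probe sets by limma was then 0.275, against 0.525 as reported. Mrpl45 moved from -1.84 to -11.3 over the residual SD of that fit, and 0 of the 63 named probe sets changed sign. Without AAM rats 1 and 3 together, 13 Mrpl and 11 Mrps probe sets were higher (medians -0.787 and -0.451). Of the named members with a value, the sign changed in 25 of 52 after quantile normalization, 14 of 63 after median centring and 4 to 12 of 63 when 1 rat was left out. The cause of these shifts was not tested.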
